A study of Mus musculus with 12 samples.

Results

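The adipocyte genes described here were 10 genes of mature fat cells, Adipoq, Retn, Plin1, Fabp4, Cfd, Cidec, Lep, Lpl, Adrb3 and Lipe, out of 24062 gene symbols counted. They were chosen by name from earlier readouts of these libraries, in which the diet contrast of the xenografts had singled out several of them. Their changes between the diets, and their calls from fits over all genes, are therefore given as a description. The 10 were not tested as a set, and nothing is supported by them. The question put to them was whether they moved in fixed proportion to each other, as one tissue source would give, in both tumor models and on both diets.

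White fat cells store triglyceride in a single large lipid droplet and release fatty acids from it by lipolysis when hormones demand it. The droplet is coated by perilipin and by Cidec (also called Fsp27), which guard and enlarge it, and fat cells also secrete hormones such as adiponectin, leptin and, in rodents, resistin. Several of these genes are not exclusive to fat: Lpl is made by muscle, macrophages and immature or diseased liver, Fabp4 by capillary endothelium and macrophages, Cidec by fatty hepatocytes, and Lipe by steroid-making and other tissues. Fat pads lie directly under the skin of the flank, around the mammary gland, and in the abdomen next to the liver.

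RNA-seq was performed on 12 mice, with 1 library per mouse and 3 mice per group, after 21 days on a control (complete) diet or a diet without tryptophan (No-Trp). The MYC-ON livers came from male LAP-tTA/TRE-MYC mice of the FVB strain, in which the LAP promoter drives the transactivator in hepatocytes and doxycycline was withdrawn at birth to switch the MYC transgene on in all of them; the control diet was fed to mice 101, 102 and 103, and the No-Trp diet to mice 105, 107 and 108. The xenografts were grown from 1 mouse liver cancer cell line, HCC53N, given as FVB MYC ON in the labels, under the skin of the flank of NOD SCID mice. The study's methods name females as hosts and also report repeats in males, with no differences found. The control diet was fed to mice 40, 41 and 43, and the No-Trp diet to mice 35, 36 and 37. The study's methods trace HCC53N to liver tumors with p53 deleted by Alb-Cre and with mutant Nras, which differs from the label of a MYC line. The labels give no age for the mice on these diets. Tumor cells and host are both mouse, so a read of a fat cell gene carries no mark of which of them it came from, and in bulk tissue more fat cells and more RNA per fat cell cannot be told apart.

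Reads on genes ranged from 14660963 to 26085349 per library, and levels are given as CPM, the reads of a gene scaled to a common library size, with factors from the trimmed mean of M values (TMM) over all 12 libraries. Albumin, which defines hepatocytes, was at 12120 ± 11693 and 52527 ± 31185 CPM in control and No-Trp livers and at 236 ± 142 and 200 ± 105 CPM in control and No-Trp xenografts (SD, n = 3 each). Some libraries stood apart. The ribosomal precursor Rn45s took 12.1% of the gene reads of control liver 101 and 2.22% of those of control liver 102, against 0.261% to 0.758% in the other 10, and 4 libraries (livers 101 and 108, control xenografts 41 and 43) carry a mark of resubmission in the file name. The library of control xenograft 40 is named in another pattern than the others and is a control by its title. A gene is said to be called when its adjusted p was at most 0.05 and its log2 fold change was at least 1 in size. Scaling by library totals alone in place of TMM moved the median log2 fold change by -0.30 over the genes tested in the livers and by 0.11 over those in the xenografts, and left 732 genes called higher and 1532 lower in the livers, against 1311 and 1026 with TMM; in the xenografts it left 60 and 11, against 36 and 17.

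RefSeq promoters on the GRCm38.p6 build were found for 7 of the 10 genes (9 start sites, with 2 each for Cidec and Lipe), and those of Adipoq, Retn, Plin1, Cfd and Lep, which were below 2 CPM in every liver and higher together in the No-Trp xenografts, are shown beside that of Cidec, which was also called in liver. Each run is the 250 bases before the start, 5′ to 3′ on the strand of the gene, and capitals mark matches to a C/EBP core (TTGCNNAA on either strand), the motif of the C/EBP factors that switch on fat cell genes. The windows are, for Adipoq, chr16:23146286-23146535 (+), for Retn, chr8:3655520-3655769 (+), for Plin1, chr7:79732777-79733026 (-), for Cfd, chr10:79890603-79890852 (+), for Lep, chr6:29059971-29060220 (+), and for Cidec, the downstream one of its 2 starts, chr6:113434765-113435014 (-).
Adipoq: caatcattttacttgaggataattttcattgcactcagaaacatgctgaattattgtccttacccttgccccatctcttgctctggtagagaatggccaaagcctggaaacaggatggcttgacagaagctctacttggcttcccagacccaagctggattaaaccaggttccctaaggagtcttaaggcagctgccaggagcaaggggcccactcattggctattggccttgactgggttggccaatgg
Retn: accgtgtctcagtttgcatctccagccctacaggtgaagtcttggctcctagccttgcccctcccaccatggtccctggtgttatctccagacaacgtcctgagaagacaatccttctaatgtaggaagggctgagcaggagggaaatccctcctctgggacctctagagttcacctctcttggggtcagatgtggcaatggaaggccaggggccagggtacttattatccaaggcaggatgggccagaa
Plin1: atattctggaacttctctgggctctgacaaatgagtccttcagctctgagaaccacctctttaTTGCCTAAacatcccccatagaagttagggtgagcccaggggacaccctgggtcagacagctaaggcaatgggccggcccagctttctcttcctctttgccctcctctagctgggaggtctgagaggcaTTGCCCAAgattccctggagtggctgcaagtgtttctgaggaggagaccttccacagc
Cfd: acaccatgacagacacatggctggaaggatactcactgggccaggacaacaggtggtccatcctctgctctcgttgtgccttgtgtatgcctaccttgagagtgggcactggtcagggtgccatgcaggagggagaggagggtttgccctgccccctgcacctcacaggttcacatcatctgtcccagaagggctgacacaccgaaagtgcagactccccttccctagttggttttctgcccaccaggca
Lep: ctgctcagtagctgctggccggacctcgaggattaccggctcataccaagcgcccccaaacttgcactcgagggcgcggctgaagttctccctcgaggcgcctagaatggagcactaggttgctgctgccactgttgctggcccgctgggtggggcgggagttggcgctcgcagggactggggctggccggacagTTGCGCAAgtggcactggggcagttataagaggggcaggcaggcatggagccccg
Cidec: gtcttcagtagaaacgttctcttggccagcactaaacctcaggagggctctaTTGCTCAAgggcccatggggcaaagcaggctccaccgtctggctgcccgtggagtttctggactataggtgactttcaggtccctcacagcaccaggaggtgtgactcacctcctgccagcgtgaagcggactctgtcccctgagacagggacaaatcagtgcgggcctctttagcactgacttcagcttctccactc

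The C/EBP core was present in 3 of the 9 windows, with 2 matches in Plin1, 187 and 58 bases before its start, 1 in Lep, 55 bases before, and 1 in Cidec, 198 bases before. It was present in 9.56% of 32851 windows of the same length over all promoters. The nuclear receptor core AGGTCA, bound by PPARG among others, was in none of the 9 windows and in 14.0% of all windows, and its direct repeat AGGTCANAGGTCA in none of the 9 and in 0.0335% of all. The box TATAAA was in none of the 9 and in 12.4% of all, and the E-box CACGTG in 1 of the 2 Lipe windows, and in 6.02% of all. Both strands were searched. A match is a match of letters in these windows and does not show binding.

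In the xenografts, all 10 adipocyte genes were higher in each of the 3 No-Trp mice than in any of the 3 control mice. Across all genes with a mean of at least 1 CPM on either diet, 11.0% of 13739 had the No-Trp mice above the control mice in this way. Of the 10 genes, 5 were called higher (Adipoq, Retn, Plin1, Cidec and Lpl) and 5 were not (Fabp4, Cfd, Lep, Adrb3 and Lipe), while 0.245% of the 14704 genes tested were called higher. As the genes were chosen on this contrast, neither count is read as a result. With 1 xenograft left out, Retn and Plin1 were called in all 6 fits, Cidec in 5, Adipoq in 3 and Lpl in 2. Fabp4 and Cfd were called in 1 each. The median log2 fold change of the 10 was 4.21, against 0.00 over all genes tested. Lep, Plin1, Retn and Adrb3 had few reads in the control mice (11, 18, 26 and 16 in all 3 together) and passed the filter on low counts through the No-Trp mice.

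**Figure D1:**
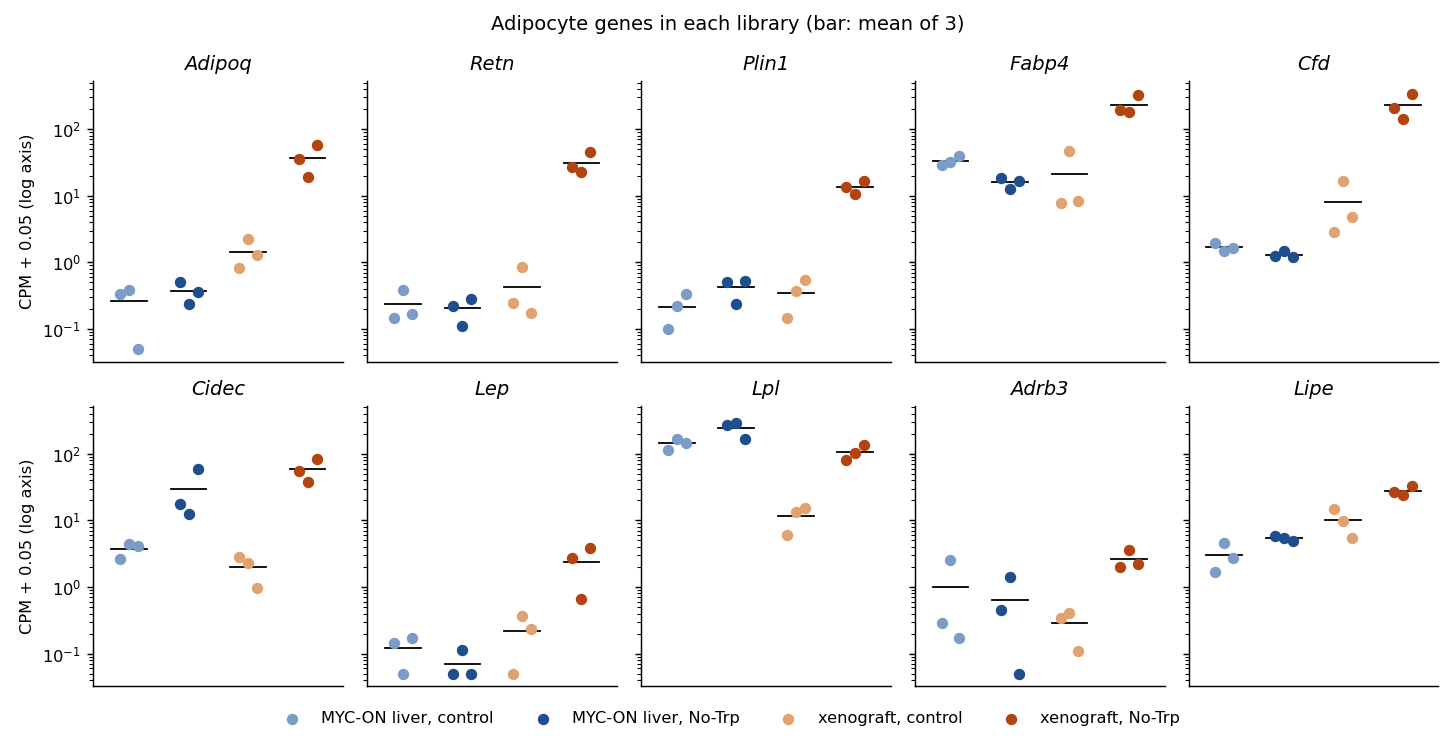
Level of each adipocyte gene in the 12 libraries, as CPM plus an offset of 0.05 on a log axis, by group (points: libraries, 3 per group; bar: mean). The 3 No-Trp xenografts lie above all 3 control xenografts for each gene, whereas in the livers Adipoq, Retn, Plin1 and Lep stay below 0.5 CPM on both diets and Fabp4, Cidec, Lpl and Lipe are well above that.

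Among the secreted products, Adipoq encodes adiponectin, a hormone made almost solely by fat cells. Its level was 0.784, 2.19 and 1.22 CPM in control xenografts 40, 41 and 43, and 35.2, 18.8 and 57.6 CPM in No-Trp xenografts 35, 36 and 37. The means were 1.40 ± 0.72 and 37.2 ± 19.5 CPM (SD, n = 3 each), a 26.6-fold difference, with a log2 fold change of 4.70 (SE 0.55) from edgeR.

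Retn, which encodes resistin, was at 0.196, 0.798 and 0.122 CPM in control xenografts 40, 41 and 43 and at 27.2, 22.3 and 44.7 CPM in No-Trp xenografts 35, 36 and 37. Its log2 fold change of 6.27 (SE 0.62) was the largest of the 10. The control values rest on 4, 20 and 2 reads.

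Cfd encodes adipsin, complement factor D, which fat cells secrete in large amounts. It was at 2.79, 16.7 and 4.75 CPM in control xenografts 40, 41 and 43 and at 207, 140.6 and 339.7 CPM in No-Trp xenografts 35, 36 and 37. The log2 fold change was 4.80 (SE 0.74), and the gene was not called. Control xenograft 41 stood above the other controls here, and was the highest control for Adipoq, Retn, Fabp4, Lep and Adrb3 as well; without that mouse the log2 fold change of Cfd became 5.92, the highest of those with 1 mouse left out.

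Lep, which encodes the satiety hormone leptin, was the lowest of the 10 genes. It had 0, 8 and 3 reads in control xenografts 40, 41 and 43, and 75, 18 and 89 reads in No-Trp xenografts 35, 36 and 37. Its log2 fold change of 3.73 (SE 0.98) had the widest error, and mouse 36, at 0.60 CPM, lay far below mice 35 and 37, at 2.72 and 3.77 CPM.

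Of the lipid droplet proteins, Plin1 encodes perilipin 1, the coat that controls access of lipases to the droplet. It rested on 2, 8 and 8 reads in control xenografts 40, 41 and 43, that is 0.098, 0.319 and 0.487 CPM, and was at 13.3, 10.6 and 16.6 CPM in No-Trp xenografts 35, 36 and 37. The log2 fold change was 5.48 (SE 0.50), and its spread among the No-Trp mice was the narrowest of the secreted and droplet genes.

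Cidec, which promotes the growth of droplets by fusion, was at 2.75, 2.23 and 0.914 CPM in control xenografts 40, 41 and 43 and at 54.5, 37.5 and 83.2 CPM in No-Trp xenografts 35, 36 and 37. The log2 fold change was 4.86 (SE 0.46). Unlike Adipoq, Retn, Cfd and Fabp4, it was highest among the controls in mouse 40.

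Of the genes of fatty acid uptake, Fabp4 encodes the fatty acid carrier of fat cells and capillaries. It was at 7.75, 47.4 and 8.22 CPM in control xenografts 40, 41 and 43 and at 191, 181 and 321 CPM in No-Trp xenografts 35, 36 and 37. The log2 fold change was 3.44 (SE 0.77) and was not called. Control mouse 41 set much of the spread, and without it the log2 fold change was 4.84.

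Lpl encodes lipoprotein lipase, which frees fatty acids from circulating triglyceride at the capillary wall. It was at 5.93, 13.2 and 15.5 CPM in control xenografts 40, 41 and 43 and at 80.4, 103.9 and 136.8 CPM in No-Trp xenografts 35, 36 and 37. The log2 fold change was 3.20 (SE 0.38). The order of the mice was not that of Adipoq on either diet: control mouse 43 and No-Trp mouse 36 ranked higher for Lpl.

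Of the lipolysis genes, Adrb3 encodes the adrenergic receptor through which noradrenaline starts lipolysis in mouse fat. It had 6, 9 and 1 reads in control xenografts 40, 41 and 43 and 54, 105 and 51 in No-Trp xenografts 35, 36 and 37, with a log2 fold change of 3.32 (SE 0.61). An antisense gene, Gm45470, overlaps Adrb3 in the GENCODE M21 annotation, and another, 4732471J01Rik, overlaps Lipe; the strand setting of the counting is not given in the sources used here, so reads of either partner cannot be told apart.

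Lipe encodes hormone-sensitive lipase, which cuts the diglyceride left by the first lipase. It was at 14.7, 9.77 and 5.36 CPM in control xenografts 40, 41 and 43 and at 26.5, 24.4 and 33.0 CPM in No-Trp xenografts 35, 36 and 37. With a log2 fold change of 1.48 (SE 0.34) it moved least of the 10 genes and was not called. Its 2.82-fold difference of means stood beside 84.5-fold for Retn.

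Per kilobase of exon, the levels in the No-Trp xenografts were highest for Fabp4, at 258 ± 87 CPM per kilobase (SD, n = 3), and Cfd, at 248 ± 110, which did not differ beyond their spread. Next came Cidec (34.0 ± 13.5), Adipoq (28.8 ± 15.1), Lpl (26.0 ± 6.9) and Retn (19.9 ± 7.5), whose ranges overlapped. Lipe (7.65 ± 1.23) and Plin1 (7.04 ± 1.55) followed, also within their spread of each other, and Adrb3 (0.91 ± 0.30) and Lep (0.73 ± 0.50) were lowest.

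The MYC-ON livers gave a different picture. Adipoq, Retn, Plin1 and Lep were close to absent on both diets, and 5 of the 10 genes (these 4 and Adrb3) fell below the filter on low counts and were not tested. Adipoq had 6, 6 and 0 reads in control livers 101, 102 and 103 and 8, 3 and 4 in No-Trp livers 105, 107 and 108. Retn had 11 reads in the control livers and 7 in the No-Trp livers, Plin1 11 and 17, and Lep 5 and 1. A difference between the diets was not detectable for these genes at this depth.

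Of the 5 genes that were tested in the livers, 2 were called, Cidec higher and Fabp4 lower, where 16.5% of the 14122 genes tested were called in either direction (9.28% higher and 7.27% lower). Cidec was at 2.56, 4.39 and 4.07 CPM in control livers 101, 102 and 103 and at 17.6, 12.5 and 58.8 CPM in No-Trp livers 105, 107 and 108, with a log2 fold change of 3.02 (SE 0.62). The groups did not overlap, and liver 108 stood above the other No-Trp livers. Fabp4 was at 28.5, 32.1 and 39.8 CPM in control livers 101, 102 and 103 and at 18.5, 12.8 and 16.7 CPM in No-Trp livers 105, 107 and 108, a log2 fold change of -1.05 (SE 0.22), again with no overlap.

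Lpl was the most abundant of the 10 in liver by reads, taking 67.1% to 89.4% of the reads of all 10 genes. It was at 114, 169 and 148 CPM in control livers 101, 102 and 103 and at 276, 287 and 168 CPM in No-Trp livers 105, 107 and 108. Its log2 fold change of 0.78 (SE 0.26) was under the threshold, and liver 108 lay just within the control range.

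Lipe was at 1.64, 4.51 and 2.64 CPM in control livers 101, 102 and 103 and at 5.72, 5.41 and 4.90 CPM in No-Trp livers 105, 107 and 108, with a log2 fold change of 0.89 (SE 0.39). Cfd was at 1.93, 1.41 and 1.60 CPM in control livers 101, 102 and 103 and at 1.20, 1.41 and 1.17 CPM in No-Trp livers 105, 107 and 108, with a log2 fold change of -0.37 (SE 0.33). Neither was called. Cidec and Lipe were thus the 2 of these 5 genes with the No-Trp livers above all control livers, where 24.3% of 13579 genes with a mean of at least 1 CPM on either diet were.

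Adrb3 varied widely in the livers, with 5, 44 and 3 reads in control livers 101, 102 and 103 and 7, 22 and 0 in No-Trp livers 105, 107 and 108. The high values of livers 102 and 107 were on different diets. Neither mouse stood apart from the other livers in Adipoq or Plin1.

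The calls in the livers rested on few mice. Leaving out 1 liver at a time gave 0 to 3 of the 10 genes called, with none called without liver 101, without liver 103 or without liver 105. Over all genes, 8 to 3207 were called with 1 liver left out, with 8 called without liver 103 and 3207 without liver 102.

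**Figure D2:**
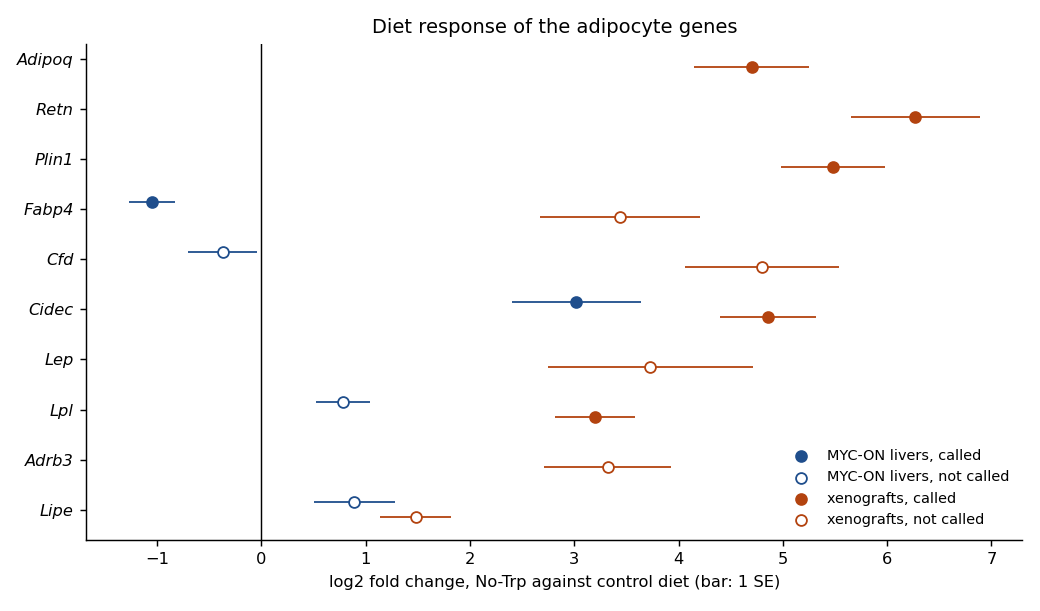
Log2 fold change between the No-Trp and the control diet for each adipocyte gene, in MYC-ON livers and in xenografts (points: edgeR estimate, 3 against 3 mice; bars: 1 SE; filled: called). Liver values are missing for the 5 genes with too few reads; Fabp4 has a negative value in liver (-1.05) and a positive one in the xenografts (3.44), and Cidec a positive one in both.

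The diet response differed between the models for 6 of the 10 genes (Adipoq, Retn, Plin1, Fabp4, Cfd and Lpl), each with the larger value in the xenografts, where 6.70% of the 15472 genes tested were called in this direction; this count is also a description, since the genes were chosen on the same contrast. The response of Cidec differed by 1.86 (SE 0.80) and that of Lipe by 0.62 (SE 0.55) on the log2 scale, and neither was called. The value for Lipe does not show equal responses, as its SE is of the size of the estimate. With 1 library left out, 5 or 6 of the 10 genes were called. Retn, Fabp4, Cfd and Lpl were called in all 12 of these fits, Plin1 in 11, Adipoq in only 4 and Cidec in 1.

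On the control diet the models themselves differed for 4 of the 10 genes, a contrast apart from that between the diets, although it shares the control mice with it. Called were Adipoq (log2 fold change, xenograft over liver, 2.82, SE 0.76, adjusted p = 0.00686), Cfd (2.30, SE 0.58, adjusted p = 0.00513) and Lipe (1.77, SE 0.40, adjusted p = 0.0022), which were higher in the xenografts. Adipoq had 6, 6 and 0 reads in control livers 101, 102 and 103 and passed the filter on low counts through the xenografts, so its call is a description. Lpl was lower, by -3.63 (SE 0.37, adjusted p = 5.04e-06). In this contrast 43.5% of the 15472 genes tested were called in either direction, so that 4 of 10 is near the background. Without control xenograft 41 the value for Adipoq remained called, and Fabp4 was called as well, with a log2 fold change of -2.06. Strain, site, host and, by the hosts named in the methods, sex differ between the models and cannot be told apart from them.

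On the No-Trp diet 8 of the 10 genes were called between the models, with Lpl lower in the xenografts and Adipoq, Retn, Plin1, Fabp4, Cfd, Lep and Lipe higher, against 43.7% of all genes tested. These values use the No-Trp xenografts from which the genes were chosen, and Adipoq, Retn, Plin1 and Lep passed the filter on low counts through the xenografts. Lpl was at 107 ± 28 CPM in the No-Trp xenografts and 244 ± 66 CPM in the No-Trp livers (SD, n = 3 each), so even after its rise it stayed below the liver level. Cidec, at 58.4 ± 23.1 and 29.6 ± 25.4 CPM, did not differ beyond its spread.

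For the proportions, the reads of each gene were divided by those of Adipoq in the same library, which cancels depth and scaling. Intervals are 95% Clopper-Pearson intervals and cover counting error only. Among the No-Trp xenografts, Cfd kept the closest proportion. It had 5.88 (5.49 to 6.30), 7.49 (6.86 to 8.19) and 5.90 (5.57 to 6.25) reads per Adipoq read in mice 35, 36 and 37, a 1.27-fold range while Adipoq itself ranged from 18.8 to 57.6 CPM. In the control xenografts 40, 41 and 43 the ratio was 3.56 (2.02 to 6.65), 7.60 (5.73 to 10.3) and 3.90 (2.36 to 6.73), so the intervals of the controls reached those of the No-Trp mice. Across the diets the log2 ratio of Cfd to Adipoq differed by 0.43 (SE 0.36), beside a rise of both genes by more than 4 on that scale.

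Cidec, with 1.55, 2.00 and 1.45 reads per Adipoq read in No-Trp xenografts 35, 36 and 37, and Retn, with 0.772, 1.19 and 0.777, also ranged less than 2-fold among the No-Trp mice. Plin1 had 0.377, 0.567 and 0.288 and Fabp4 5.43, 9.63 and 5.58 reads per Adipoq read in the same mice. Mice 35 and 37 agreed closely for Cfd, Retn, Cidec and Fabp4, and mouse 36, with the least Adipoq, had the highest ratio for all of the genes but Lep.

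The spread of these ratios between mice is given beside the counting error, which does not include differences between mice. The SD of the log2 ratio over the No-Trp xenografts was 0.20 for Cfd, 0.25 for Cidec, 0.36 for Retn, 0.47 for Fabp4 and 0.49 for Plin1, where counting error alone gives 0.05, 0.06, 0.07, 0.05 and 0.09. It was wider for Lipe (0.60), Lep (0.68), Lpl (0.72) and Adrb3 (1.21).

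Between the diets the proportions moved in opposite ways for different genes. Retn had the larger value in the No-Trp mice, with 0.25, 0.364 and 0.100 reads per Adipoq read in control xenografts 40, 41 and 43, and a log2 ratio higher by 1.57 (SE 0.34) in the No-Trp mice among the libraries with at least 3 reads of each gene. Plin1 and Cidec differed by 0.71 (SE 0.78) and 0.25 (SE 0.69), within their error. The Plin1 value leaves out control xenograft 40 (2 reads, ratio 0.125), and the Retn value leaves out control xenograft 43 (2 reads, ratio 0.100). Each left-out ratio was the lowest of its gene in the xenografts. The difference was -0.77 (SE 0.56) for Fabp4, -1.44 (SE 0.39) for Lep and -1.42 (SE 0.52) for Lpl. The Fabp4 ratios overlapped, at 6.75 to 21.6 in the control and 5.43 to 9.63 in the No-Trp mice. The Lep value leaves out control xenograft 40, which had 0 Lep reads and so a ratio below all No-Trp mice. For Adrb3 the difference was -1.76 (SE 0.92), without control xenograft 43, which had 1 read.

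Lipe was farthest from a fixed proportion. It had 18.7, 4.46 and 4.40 reads per Adipoq read in control xenografts 40, 41 and 43 and 0.753, 1.30 and 0.574 in No-Trp xenografts 35, 36 and 37, a 32.6-fold range over the 6 tumors. The log2 ratio was lower by -3.12 (SE 0.77) in the No-Trp mice. In control xenograft 40, Lipe made up 41.6% of the reads of the 10 genes, and Adipoq 2.23%.

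**Figure D3:**
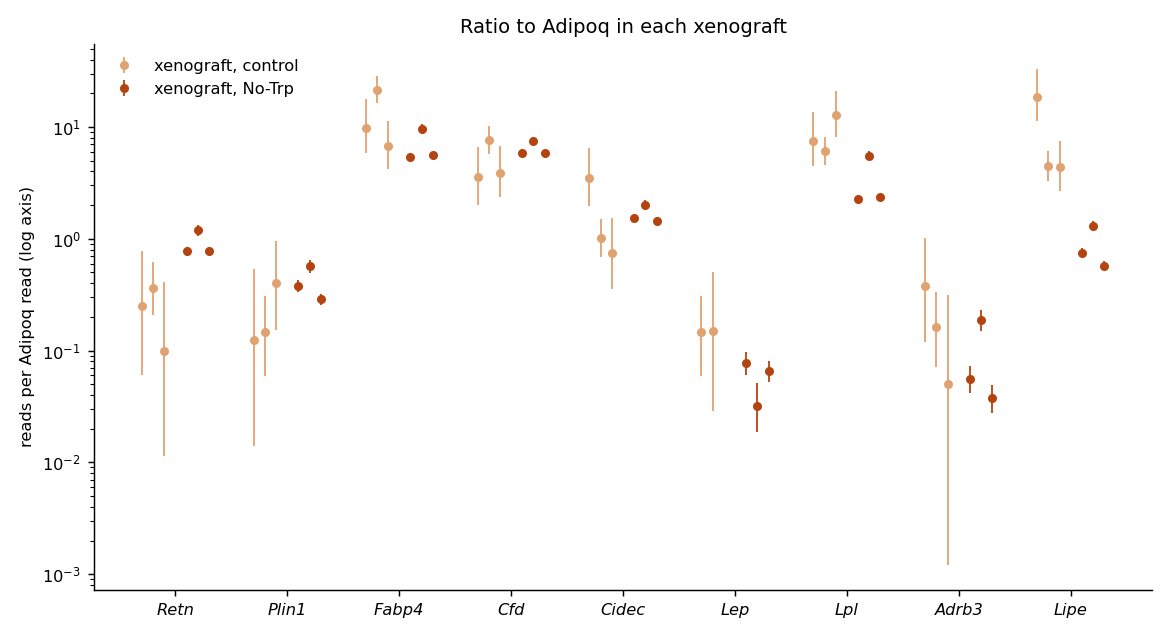
Reads of each gene per Adipoq read in the 6 xenografts on a log axis (points: mice 40, 41 and 43 on the control diet, then 35, 36 and 37 on the No-Trp diet; bars: 95% Clopper-Pearson interval). Lep in mouse 40 had no read and is left out. Cfd stays between 3.56 and 7.60 in all 6 tumors, while Lipe falls from 4.40 or more to 1.30 or less.

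The control level was also subtracted, a step added after the values were seen. The mean of the control xenografts was taken from each No-Trp xenograft, and the excess was divided by that of Adipoq. The excess of Lipe was then 0.490, 0.835 and 0.411 CPM per CPM of Adipoq in mice 35, 36 and 37, a 2.03-fold range, that of Retn 0.793, 1.26 and 0.790, that of Cfd 5.89, 7.63 and 5.90, and that of Cidec 1.55, 2.04 and 1.45. The excess of Lpl ranged 2.61-fold, that of Lep 3.03-fold and that of Adrb3 5.48-fold. The excess of Plin1 ranged 2.05-fold and that of Fabp4 1.83-fold. Without subtraction the ranges over the same 3 mice were 2.27-fold for Lipe, 2.42-fold for Lpl, 1.97-fold for Plin1 and 1.77-fold for Fabp4.

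The same ratios were then set beside the livers and the control xenografts. Adipoq, Retn, Plin1 and Lep, the 4 genes with the fewest liver reads, were summed in each library, and the reads of each other gene that would go with that sum at the ratio of the No-Trp xenografts were compared with the reads counted. This comparison was added after the values were seen. For Cfd the counted reads were 0.616 to 1.34 times those at the ratio in the control livers, 0.408 to 1.06 times in the No-Trp livers and 0.873 to 1.70 times in the control xenografts. In the livers, that is 25 to 40 reads counted on the control diet and 15 to 23 on the No-Trp diet, and none of the 6 livers exceeded the upper 95% Poisson limit. No lower limit was computed, and Cfd fell short in No-Trp livers 105 (21 reads against 51.4 at the ratio) and 108 (15 against 35.2). Control xenograft 41 exceeded its upper limit, with 418 reads against 302.5.

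Adrb3 varied from 7.28 to 92.5 times the ratio in the control livers (3 to 44 reads). In the No-Trp livers it varied from 0 to 86.8 times (0 to 22 reads). For Fabp4, Cidec, Lipe and Lpl the liver counts lay far above the ratio. Fabp4 was counted at 569 to 996 reads in the control livers, 13.7 to 27.8 times the ratio, and at 208 to 323 reads in the No-Trp livers, 5.996 to 9.43 times. Cidec was 6.96 to 11.3 times the ratio in the control livers and 23.3 to 84.1 times in the No-Trp livers. Lipe was 9.13 to 15.8 and 14.3 to 32.5 times, and Lpl 155 to 220 and 129 to 452 times. All 6 livers exceeded the upper limit for each of these 4 genes. Adipoq, Retn, Plin1 and Lep were summed because they had the fewest liver reads, and the ratio came from xenografts in which they were high. That choice favors an excess of the other genes in the livers, so the excess is a description and no support.

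In the control xenografts, Lipe (7.88 to 40.1 times), Lpl (2.82 to 5.96 times) and Fabp4 (1.48 to 4.73 times) were above the ratio in all 3 mice. Cidec was below it in mice 41 and 43, down to 0.656 times, and 3.68 times above in mouse 40. Adrb3, with 1 to 9 reads, was at 0.956 to 8.60 times the ratio.

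**Figure D4:**
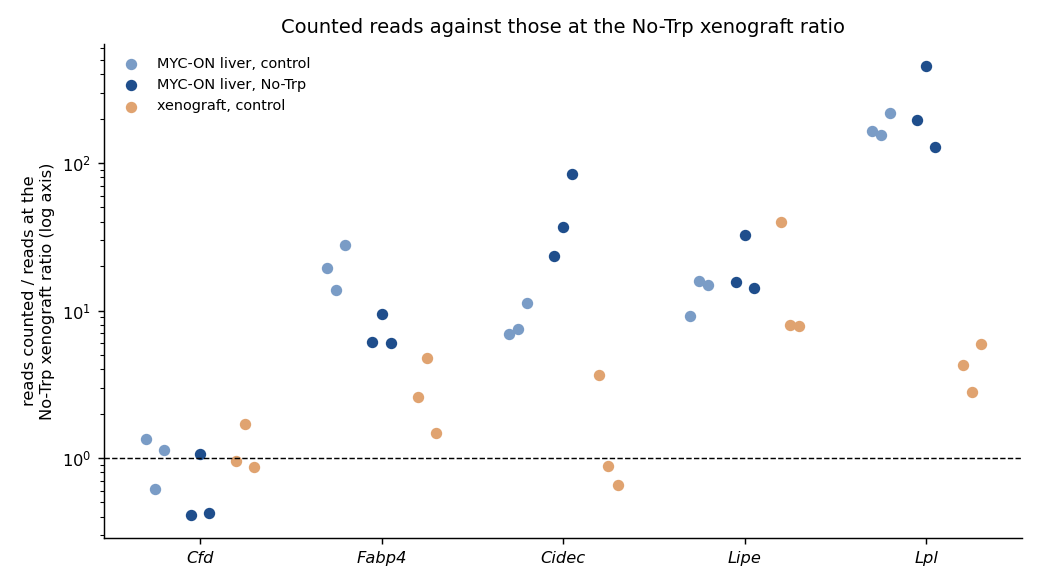
Reads counted divided by the reads that would go with the summed Adipoq, Retn, Plin1 and Lep reads at the No-Trp xenograft ratio, on a log axis (points: 3 libraries per group; dashed line: equal). Cfd lies between 0.408 and 1.70 in all 9 libraries, and Lpl in the livers lies at 129 or more. Adrb3, with few reads, is not plotted.

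Other genes of fat cells were taken from a list of 16 that holds none of the 10. Of these, 5 were called higher between the diets and none lower, with a median log2 fold change of 3.08, against 0.360% of all genes called in either direction. Pnpla3, a lipase of the lipid droplet, rose from 0.250 ± 0.053 to 8.44 ± 2.94 CPM (SD, n = 3 each; log2 fold change 5.06, SE 0.45, adjusted p = 0.00957). Adig, needed for fat cell maturation, rose by 5.14 (SE 0.70, adjusted p = 0.0299), Tshr, the receptor for thyrotropin, by 4.81 (SE 0.73, adjusted p = 0.0436), Plin4, a droplet coat of white fat, by 4.25 (SE 0.54, adjusted p = 0.0436), and Acvr1c, a receptor of the activin family, by 4.16 (SE 0.58, adjusted p = 0.0352). In the control xenografts Adig, Tshr and Acvr1c were at only 0.102, 0.060 and 0.096 CPM. These 3 and Pnpla3 passed the filter on low counts through the No-Trp mice, so their calls and the list's median are a description and no support. In all, 11 of the 16 had the No-Trp mice above the control mice, beside the 11.0% of all genes given above.

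Car3, a carbonic anhydrase abundant in fat and muscle, had log2 fold changes of 4.72 (SE 0.81, adjusted p = 0.0669) in the xenografts and -2.66 (SE 0.95, adjusted p = 0.0796) in the livers, neither of which was called. Slc36a2, an amino acid transporter of fat and muscle, fell in the livers (log2 fold change -2.78, SE 0.66, adjusted p = 0.03), and its value in the xenografts was 3.54 (SE 0.60, adjusted p = 0.0506). In the livers, 2 of the 12 genes tested were called higher (Plin4 and Mrap) and 1 lower. The shares over all genes there were 9.28% and 7.27%. Mrap, a partner of the melanocortin receptors, was at 16.8 ± 3.3 and 19.8 ± 4.1 CPM in control and No-Trp xenografts.

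Of the wider machinery of fat storage and lipolysis, 21 genes shared with other tissues, more were called in the livers, as were more of all genes. There 10 of the 21 were called higher and 1 lower (9.28% and 7.27% of all genes), with a median log2 fold change of 1.03. In the xenografts, where 0.360% of all genes were called in either direction, 1 of the 21 was called, and their median was 0.24. It was Acsl1, which activates long-chain fatty acids, higher by 1.67 (SE 0.21, adjusted p = 0.0247). In the xenografts 8 of the 21 had the No-Trp mice above the control mice, beside the 11.0% of all genes given above. Pnpla2, the first lipase of lipolysis, rose in the livers by 1.79 (SE 0.15, adjusted p = 0.00517), and the droplet coat Plin5 rose by 2.53 (SE 0.19, adjusted p = 0.00432). Plin2, the droplet coat of most cells, rose in the livers by 1.75 (SE 0.31, adjusted p = 0.0187) and had a value of -0.79 (SE 0.24, adjusted p = 0.173) in the xenografts; its response differed between the models by -2.51 (SE 0.41, adjusted p = 0.00662), where 6.01% of all genes were called in this direction. Cidec was thus called higher in the livers as were Plin2, Plin4 and Plin5, while Adipoq and Plin1 had too few reads to be tested there.

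Of 9 transcription factors of fat cells, none was called higher in the xenografts, where 0.245% of all genes were. Pparg, the factor that fat cells cannot form without, was at 7.82 ± 2.51 and 17.8 ± 4.1 CPM in control and No-Trp xenografts (log2 fold change 1.18, SE 0.29, adjusted p = 0.119), and Cebpa at 30.4 ± 14.7 and 34.1 ± 5.0 CPM. Cebpb fell, from 72.5 ± 3.6 to 30.8 ± 4.8 CPM (log2 fold change -1.25, SE 0.16, adjusted p = 0.0235). In the livers 5 of the 8 tested were called higher, against 9.28% of all genes, among them Pparg, by 1.02 (SE 0.31, adjusted p = 0.0477), and Cebpb, by 1.9 (SE 0.27, adjusted p = 0.0142). Of the genes of brown and beige fat, Ucp1, the uncoupling protein that defines brown fat, had at most 3 reads in every xenograft, and none of the 4 tested there was called.

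Markers of other tissues of the flank were examined beside the adipocyte genes. The summed level of 8 skeletal muscle genes was 3.43, 3.87 and 22.1 CPM in control xenografts 40, 41 and 43 and 48.3, 32.8 and 66.3 CPM in No-Trp xenografts 35, 36 and 37; Acta1, the muscle actin, was its highest gene, at 3.57 ± 4.22 and 21.8 ± 7.4 CPM (log2 fold change 2.62, SE 0.86, adjusted p = 0.212). None of the 8 was called, and 6 had the No-Trp mice above the control mice (11.0% of all genes). In mouse 43 the muscle sum was the highest of the controls, while its sum over the 10 adipocyte genes, 36.8 CPM, was close to that of mouse 40, at 35.2 CPM.

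The mammary epithelium list holds 4 milk protein genes and Elf5, a factor of the secretory lineage. These 5 summed to 1.96, 3.91 and 0.731 CPM in control xenografts 40, 41 and 43 and to 25.4, 6.54 and 26.4 CPM in No-Trp xenografts 35, 36 and 37. The No-Trp mice were in the same order as for Adipoq. That order was shared by the sums of skeletal muscle, fat cell precursors and fibroblasts, mesothelium and Kupffer cells, so it was not particular to this list. Csn3 was the highest, at 1.71 ± 1.31 and 10.9 ± 5.0 CPM (log2 fold change 2.64, SE 0.68, adjusted p = 0.142). Csn2 had values of 11.5, 0.200 and 8.40 CPM in No-Trp mice 35, 36 and 37. None of the 3 tested was called between the diets, and Wap was at or near 0 in all 6.

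Markers of the epidermis did not follow the adipocyte genes. They summed to 61.3, 44.5 and 245 CPM in control xenografts 40, 41 and 43 and to 59.2, 68.0 and 46.9 CPM in No-Trp xenografts 35, 36 and 37. Krt14, the highest of them, was at 98.4 CPM in mouse 43, and Lor, a protein of the cornified layer, fell from 8.87 ± 2.29 to 1.65 ± 0.48 CPM (log2 fold change -2.43, SE 0.37, adjusted p = 0.0436).

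Lists of stromal cells overlapped between the diets. The 9 genes of fat cell precursors and fibroblasts summed to 150.3 to 355 CPM in the control and 221 to 474 CPM in the No-Trp xenografts, the 8 of endothelium to 95.9 to 182 and 120 to 226 CPM, and the 8 of macrophages to 759 to 1064 and 779 to 1227 CPM, and no gene of the 3 lists was called between the diets in the xenografts. Dcn, the most abundant of the precursor genes on the No-Trp diet, was at 48.1 ± 30.7 and 120.1 ± 45.6 CPM (log2 fold change 1.31, SE 0.52, adjusted p = 0.276), Pecam1 of endothelium at 33.5 ± 14.3 and 56.2 ± 24.7 CPM, and Lyz2 of macrophages at 334 ± 102 and 342 ± 98 CPM. The part of any of these lists in the levels of the adipocyte genes was not tested.

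**Figure D5:**
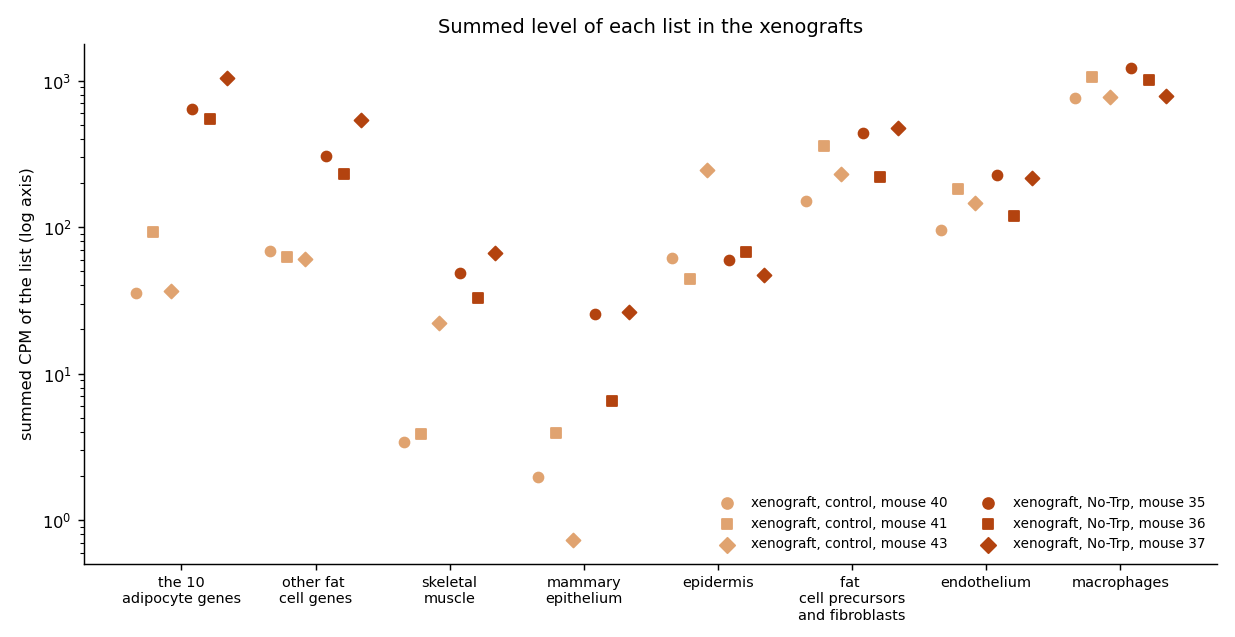
Summed CPM of each gene list in the 6 xenografts on a log axis (points: mice, with a symbol for each). The No-Trp mice lie above all control mice for the 10 adipocyte genes (543 CPM or more against 93.3 or less), for the 16 other fat cell genes, for skeletal muscle and for mammary epithelium, and the diets overlap for the other 4 lists plotted.

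In the livers, the genes of the peroxisome proliferator receptor PPARA in hepatocytes were higher on the No-Trp diet, as Cidec was. Their sum was 1119, 2994 and 1618 CPM in control livers 101, 102 and 103 and 8485, 16382 and 10605 CPM in No-Trp livers 105, 107 and 108, and 7 of the 9 were called higher, against 9.28% of all genes. Cyp4a14, a fatty acid hydroxylase, had the largest value, 6.95 (SE 0.92, adjusted p = 0.0139). In the xenografts, where 0.360% of all genes were called, none of these 9 was. Their sums there, 373 to 471 CPM in the control and 395 to 453 CPM in the No-Trp mice, overlapped. Other lists also had every No-Trp liver above every control liver: the 8 hepatocyte genes summed to 8290 to 38299 CPM in the control and 47529 to 121587 CPM in the No-Trp livers, with 3 of 8 called higher, and the 9 genes of fat cell precursors and fibroblasts to 93.1 to 196 and 279.5 to 365 CPM, with 2 called higher and 1 lower. The part of these lists in the levels of Cidec, Lpl or Lipe was not tested. The sums of the 8 endothelial genes in the livers, 132 to 195 and 156 to 249 CPM, and of the 8 macrophage genes, 462 to 612 and 342 to 571 CPM, overlapped between the diets beside the fall of Fabp4, and their part in it was not tested.

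The 10 genes outside the list with levels most like the mean of Adipoq, Plin1, Cfd and Retn over the 6 xenografts, by Pearson's r of log2 CPM among 13729 genes, were Snx19, Tshr, Klhdc7a, B3galt2, Timp4, Plin4, Car3, Lgals12, Steap4 and Abcd2, with r from 0.986 to 0.997. Lgals12, a galectin of the fat cell droplet, was at 0.299 CPM on the control and 5.09 CPM on the No-Trp diet, and Timp4, an inhibitor of matrix metalloproteinases, at 0.066 and 4.43 CPM. Tshr, Plin4 and Car3 were also in the list of other fat cell genes. Of the 10 adipocyte genes, Adrb3 (r = 0.922) and Lipe (r = 0.851) were the least like this mean, of which 4 of them are part. These r values describe 6 libraries in 2 groups of 3 and mainly reflect the gap between the diets.

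The same search over the 6 livers, among 13574 genes, gave BC037034, Haghl, H2-M3, Tmem200b, Mtrf1, Irf9, Slc18a1, Fgd2, Rasgrp2 and Myl6b, with r from 0.948 to 0.978. None of them was in the first set or in a list of fat genes. In the livers 3 of the 4 reference genes rest on 0 to 8 reads per library, so this set describes counts near 0.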

How the data were processed

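RNA of 12 mice was sequenced, 1 library per mouse. Per the labels, the authors trimmed reads with Trim Galore; the submitters' processing notes also name STAR 2.7.2b, SAMtools 1.9 and HTSeq with the builds mm10 and GRCm38.p6, and the deposited values are raw read counts per gene symbol, with no normalization. The strand setting of the counting is not given in the sources used here. The 5 summary lines of each file were left out; reads not on genes were 24.7% to 39.4% of the reads listed. Groups were taken from the titles and diet labels, and no column of another sample was present.

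Counts were scaled with TMM factors, filtered with filterByExpr and fitted by the robust quasi-likelihood method of edgeR 4.0.16 under R 4.3.3, with two-sided tests and p-values adjusted by Benjamini-Hochberg over all genes tested. The diets were compared within each model, and the interaction and the model contrasts came from 1 fit of all 12 libraries. Each library is a separate mouse by its label, and the xenografts share 1 injected line, so p-values measure the spread between these mice. Log2 CPM used a prior count of 2. The fits were tested on simulated counts. Exon lengths came from GENCODE M21, and promoters from RefSeq.

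The members and all lists were chosen with earlier results of these data known. Genes named are the 10 members, genes of the lists called in a diet contrast or in the interaction (up to 6 per list) with the highest marker of each list of other cell types, the 10 genes most like the members in each model, and Rn45s; Csn2, Wap, Slc36a2, Car3, Mrap, Cebpa, Pparg and Ucp1 were named where a sentence turned on them. Alternatives were DESeq2 1.42.0, other scalings and filters, a term for the resubmission mark, leaving out Rn45s or each library, no threshold on the fold change, and other references for the proportions.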

Additional observations from a re-analysis of the deposited data

Results flagged for a closer look

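The diet response differed between xenografts and livers, by edgeR's test of the interaction at an adjusted p of at most 0.05, for 6 of the 10 adipocyte genes. The xenograft response minus the liver response, on the log2 scale, was 4.02 for Adipoq, 6.51 for Retn, 4.40 for Plin1, 4.51 for Fabp4, 5.19 for Cfd and 2.45 for Lpl. These genes were chosen on this contrast, so the values are a description. Fabp4 was the one of the 10 for which every No-Trp xenograft lay above and every No-Trp liver below its controls. For Adipoq, Retn and Plin1 the liver term rests on 0 to 8 reads per library.

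Among the genes of the other lists, the difference was 2.54 for Plin4, 7.41 for Car3, 6.33 for Slc36a2, 4.98 for Thrsp, a lipogenic gene of fat and liver, and 5.57 for Pnpla3. It was -1.24 for Mrap, -2.51 for Plin2, -2.18 for Plin5 and -3.12 for Cebpb. It was 2.98 for Mylpf of skeletal muscle, -3.09 for Lor of the epidermis, and 8.93 for Csn2 and 3.76 for Csn3 of mammary epithelium. Lor, Csn2 and Csn3 fell below the filter in the livers, where their group means were 0.0205 to 0.554 CPM. Their liver terms rest on counts near 0, so these 3 values are a description and no support. With 3 libraries per group, no group was searched for single outlying samples.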

How the results depend on the processing

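The number of the 10 adipocyte genes called between the diets depended on the processing. In the xenografts 5 were called, against 3 with at least 10 reads required in each library (4 of the 10 were then not tested), 2 with the resubmission mark as a term, which leaves control xenograft 40 as the only unmarked control, and 10 with DESeq2; leaving out 1 library gave 3 (without mouse 43) to 5. Over all genes the count there was 53, against 82 with RLE factors, 118 with no filter, 15 with at least 10 reads in each library, 85 without Rn45s, 4 with the resubmission term, 23 in 1 fit of all 12 libraries and 380 with DESeq2, and 9 (without mouse 43) to 78 (without mouse 40) with 1 library left out. In the livers 2 of the 10 were called, against 1 in 1 fit of all 12 libraries and 0 to 3 with 1 liver left out, and 2337 genes in all, against 3570 with no threshold on the fold change and 8 to 3207 with 1 liver left out. With at least 10 reads in each library, 3 in place of 6 genes were called for a response that differs between the models and 4 in place of 8 between the models on the No-Trp diet, since 5 of the 10 were then not tested; 1966 genes in all were called for the former, and 916 to 2571 with 1 library left out. No fold change of the 10 between the diets changed sign under any alternative run, but with the resubmission term the xenograft log2 fold change went from 3.73 to 8.82 for Lep, from 5.48 to 7.03 for Plin1, from 4.80 to 6.35 for Cfd and from 3.44 to 4.89 for Fabp4. Between the models on the control diet, Retn ranged from -0.12 (without control xenograft 41) to 1.77 and Adrb3 from -2.42 to 0.43 (without liver 102) with 1 library left out, and neither was called. The median over 9 genes of the SD of the log2 ratio to Adipoq over the xenografts was 0.92, against 0.77 with at least 20 reads of each gene, 1.24 for ratios to Plin1, 0.84 for ratios to all 10 genes, and 0.82 to 0.92 with 1 library left out. The cause of these shifts was not tested where none is named. No paired analysis was possible because mice of different groups carry different numbers. With fewer than 10 reads in most libraries, Adipoq, Retn, Plin1 and Lep in the livers can show only large differences.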

Other observations

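Xist, transcribed from the inactive X of female cells, was at 61.6 to 171 CPM in the control and 84.3 to 218 CPM in the No-Trp xenografts, and the Y-linked Ddx3y was at 0.518 to 1.34 CPM in all 6. The diets overlapped for both. In the livers, which came from males, Xist was at 8.38 to 14.6 CPM and Ddx3y at 74.1 to 130.4 CPM. The sex of hosts and tumor cells was not tested. As the labels do not give the sex of the HCC53N line, neither transcript separates host from tumor reads.

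Lists of other tissues had these summed levels in the control and the No-Trp xenografts. The 4 mesothelial genes were at 211 to 384 and 381 to 668 CPM, the 8 hepatocyte genes at 472 to 1121 and 433 to 1006 CPM, the 6 pancreatic acinar genes at 16.6 to 33.7 and 15.8 to 17.8 CPM, and the 5 Kupffer cell genes at 3.63 to 8.10 and 6.04 to 21.8 CPM. No gene of these 4 lists was called between the diets in the xenografts. Nearly all of the mesothelial sum was Msln, and nearly all of the pancreatic sum was Cela1. The mesothelial genes Upk3b and Lrrn4 had means of 0.094 and 0.016 CPM in the control and 0.133 and 0.129 CPM in the No-Trp xenografts. Neither sum is thus a measure of its tissue. The 4 PPARG targets of fatty hepatocytes are Plin4, the fatty acid transporter Cd36, Mogat1 and Cidea. They summed to 5.59 to 15.2 and 50.5 to 146 CPM in control and No-Trp xenografts and to 36.2 to 70.8 and 113.5 to 131 CPM in control and No-Trp livers. Most of these sums was Plin4 and Cd36. Mogat1 had means of 0.123 and 0 CPM in control and No-Trp xenografts and of 1.49 and 0.532 CPM in control and No-Trp livers. Those of Cidea were 0.093 and 0.661 CPM in the xenografts and 0.142 and 0.078 CPM in the livers. Cd36 had log2 fold changes of 2.82 (SE 0.49, adjusted p = 0.0669) in the xenografts and 1.06 (SE 0.34) in the livers and was not called in either.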
